A study of Zea mays with 12 samples.

Results

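Sucrose is made, moved and broken down by a short chain of proteins, and 3 of the genes that encode them are described here in maize leaves: sps1, for sucrose phosphate synthase, sut1, for a sucrose transporter, and sus1, for sucrose synthase. They were taken as every probe set whose platform symbol, RefSeq symbol or synonym is one of these names, which gave 3 of the 17621 probe sets tested, 1 per gene: sps1 is LOC542711, sut1 is LOC541615 and sus1 is LOC542247. The sut1 probe set has a suffix (_s_at) that marks probes which can match several related transcripts. The 3 genes were proposed with their difference between soils in one line, Cat100-6, and the contrast of that difference with the other line already known.

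Sucrose is the main form in which maize leaves export carbon. In the cytosol of leaf cells, sucrose phosphate synthase joins UDP-glucose and fructose 6-phosphate to sucrose 6-phosphate, from which a phosphatase makes sucrose. SUT1 is a proton symporter that takes sucrose up across the plasma membrane and loads it into the phloem of mature maize leaves, while sucrose synthase splits sucrose reversibly, with UDP, into UDP-glucose and fructose, and is best known from tissues that import sucrose.

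Transcripts were measured on 12 one-colour Affymetrix Maize Genome arrays, 3 for each of 4 groups of leaf samples. The groups were Cat100-6, an aluminium-tolerant line, in acid soil and in control soil, and S1587-17, an aluminium-sensitive line, in acid soil and in control soil. Plants of all groups came from seeds germinated for 2 days and stayed in bags of 20 seeds for 3 days, under 16 h of light and 8 h of dark. Acid soil was a fertilised soil of pH 4.1 with 10 mmolc of aluminium per dm3, to which calcium had been added as calcium chloride. Control soil was the same soil limed for 1 week with 0.8 g of calcium hydroxide per kg, which left a pH of 5.5 and no detectable aluminium, so pH and aluminium changed together and cannot be told apart. Each kind of tolerance is represented by 1 line, so that tolerance and any other difference between these lines cannot be told apart either. The labels call the samples biological replicates but do not say whether those of a group came from separate bags, so p-values reflect only how these samples spread, which may in part be technical.

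The array of S1587-17 control soil replicate 3 stood apart. Its values correlated with those of its 2 group mates at r of 0.963 and 0.967, where all other pairs within a group were at 0.985 to 0.997, and it was nearer to the Cat100-6 control arrays (r of 0.950 to 0.953) than its group mates were (0.902 to 0.914). The differences between soils and between lines of the 3 genes that rest on it are therefore also given without it. The means per array of 7 mesophyll probe sets were 10.83 to 11.56 on the log2 scale, those of 4 bundle sheath probe sets 11.66 to 13.39, those of 3 root probe sets 5.46 to 7.15 and those of 15 seed probe sets 4.03 to 4.35. Each probe set has a scale of its own and RMA values have no true 0, so these levels do not test the labelled tissue, and no marker could be called absent.

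In Cat100-6 leaves the synthesis gene and the transporter gene were far lower in acid soil than in control soil, and the cleavage gene was higher. In S1587-17 leaves the differences between soils were smaller for all 3 genes, and sut1 and sus1 overlapped between soils. The ranges of the lines were apart in control soil and overlapped in acid soil.

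The sucrose phosphate synthase gene, sps1, had the widest range of the 3. Its log2 expression was 6.05, 5.38 and 7.26 on the acid soil arrays of Cat100-6 (replicates 1, 2 and 3), against 10.09, 10.75 and 10.59 on the control soil arrays. All 3 acid soil arrays lay below all 3 control soil arrays, and the acid soil arrays also differed among themselves by more than those of control soil did. The group means were 6.23 ± 0.95 in acid soil and 10.48 ± 0.35 in control soil (SD, n = 3 each), a difference of -4.25 ± 0.49 log2 units (SE of the fit), or 19.0-fold lower in acid soil. In S1587-17, sps1 was at 7.30, 7.07 and 6.18 in acid soil, against 7.39, 7.59 and 8.81 in control soil. The arrays of the 2 soils did not overlap here either, but the gap between the nearest pair was narrow and the highest value came from the array that stands apart.

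The sucrose transporter gene, sut1, followed the same order of groups. It was at 8.49, 7.57 and 9.23 in Cat100-6 acid soil leaves, against 10.94, 11.13 and 11.02 in Cat100-6 control soil leaves. The control soil arrays were nearly alike and all above the acid soil arrays, which again spread widely. Group means of 8.43 ± 0.83 in acid soil and 11.03 ± 0.09 in control soil (SD, n = 3 each) gave a difference of -2.61 ± 0.46 log2 units (SE), 6.08-fold lower in acid soil. In S1587-17 the values were 9.02, 9.14 and 8.85 in acid soil and 8.40, 9.01 and 10.33 in control soil. The acid soil values lay inside the range of the control soil values, and replicate 3 of control soil was again the highest.

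The sucrose synthase gene, sus1, ran the other way. It was at 12.14, 12.36 and 11.9997 in Cat100-6 acid soil leaves, against 10.73, 10.71 and 10.48 in Cat100-6 control soil leaves. Every acid soil array was above every control soil array, with little spread in either group. The means were 12.17 ± 0.18 in acid soil and 10.64 ± 0.14 in control soil (SD, n = 3 each), a difference of 1.53 ± 0.19 log2 units (SE), 2.88-fold higher in acid soil. S1587-17 had 12.46, 12.58 and 12.35 in acid soil and 12.43, 12.70 and 11.85 in control soil, so that its soils overlapped and only Cat100-6 control soil leaves were low. In bulk leaf samples such as these, fewer cells of a type and less RNA per cell cannot be told apart.

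**Figure D1:**
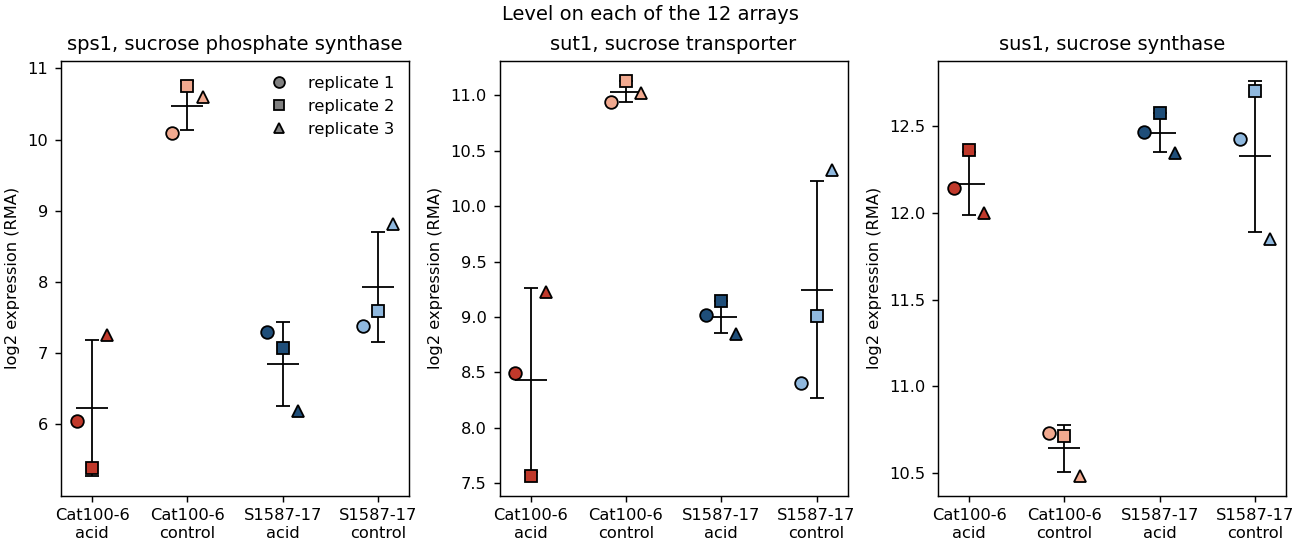
Log2 expression (RMA) of sps1, sut1 and sus1 on each of the 12 arrays, by group, with the group mean and SD (n = 3) as bars. Cat100-6 control soil leaves stand apart from the other 3 groups, high for sps1 (10.48) and sut1 (11.03) and low for sus1 (10.64).

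Since the choice of these genes used the Cat100-6 difference, it is a description and carries no p-value. The arrays of the 2 soils did not overlap for all 3 genes in Cat100-6. That was also so for 68.6% of all probe sets (40.7% lower and 27.9% higher in acid soil), and 55.0% of all probe sets passed the limma test at an adjusted p under 0.05, so nothing is read from the count itself. Cell type markers moved in the same comparison. All 4 bundle sheath probe sets and 5 of 7 mesophyll probe sets fell in Cat100-6 acid soil leaves, and 1 mesophyll probe set rose. All 3 root probe sets and 3 of 15 seed probe sets fell. The 7 mesophyll probe sets stand for only 3 genes, most of them for pdk1, and the 15 seed probe sets for 11 genes. By limma's test 31.5% of all probe sets fell and 23.5% rose. Scaled to spiked control RNAs instead, 2 bundle sheath, 0 mesophyll, 2 root and 0 seed probe sets fell, and 1 mesophyll and 2 seed probe sets rose. That mesophyll probe set was of pdk1 (1.72), whose other probe sets did not pass. Under that scaling 5.96% of all probe sets fell and 37.4% rose. The bundle sheath mean was 12.28 ± 0.55 in acid soil and 13.38 ± 0.02 in control soil (SD, n = 3 each), its array values running from 11.66 to 12.71 in acid soil and from 13.35 to 13.39 in control soil. The root mean ran from 5.46 to 5.94 in acid soil and from 6.83 to 7.15 in control soil. The part of these shifts in the results was not tested.

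The spiked hybridization controls, RNAs added in equal amount to every array, also differed: their mean was 9.72 ± 0.31 in Cat100-6 acid soil and 10.21 ± 0.21 in Cat100-6 control soil, against 10.17 ± 0.01 and 10.26 ± 0.05 in the same soils for S1587-17 (SD, n = 3 each). When the arrays were scaled to an equal mean of these controls, the median of all probe sets in the Cat100-6 comparison was 0.36, against -0.14 in the deposited scaling. The differences of the 3 genes were then -3.75 for sps1, -2.11 for sut1 and 2.02 for sus1, so that each kept its direction.

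The response of S1587-17 equals the Cat100-6 response less the contrast between the lines' responses, both known when the genes were chosen, so it is a description as well and carries no p-value. The sps1 difference was -1.08 ± 0.49 log2 units (SE), or 2.11-fold lower in acid soil. It was the 1 member whose soils did not overlap in this line, as was so for 4.68% of all probe sets in this direction. For sut1 the difference was -0.25 ± 0.46 and for sus1 it was 0.14 ± 0.19, both smaller than their SE. Without control soil replicate 3 the differences were -0.64 for sps1, 0.29 for sut1 and -0.10 for sus1, so that for sut1 and sus1 the sign turned.

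The response of Cat100-6 less that of S1587-17 was -3.17 ± 0.69 for sps1, -2.36 ± 0.65 for sut1 and 1.39 ± 0.27 for sus1 (log2 units, SE), given without a test because it was known when the genes were chosen. Without S1587-17 control soil replicate 3 these contrasts were -3.61, -2.90 and 1.63, each farther from 0. Set to the spiked controls they were -2.77, -1.96 and 1.79.

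**Figure D2:**
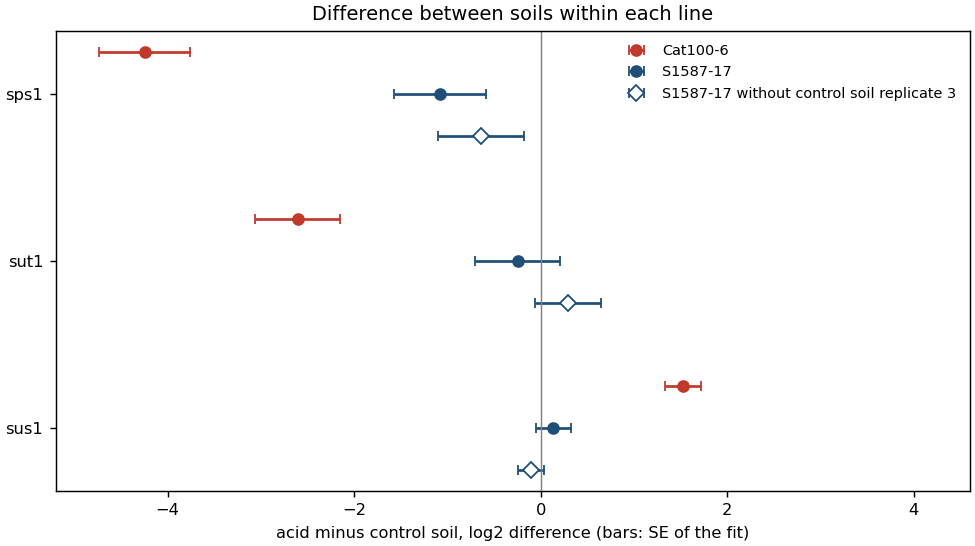
Difference between acid and control soil (log2, acid minus control) of sps1, sut1 and sus1 in Cat100-6 and in S1587-17, with the SE of the fit as bars, and in S1587-17 without control soil replicate 3 as open diamonds. The Cat100-6 differences of -4.25, -2.61 and 1.53 lie far from 0, while those of S1587-17 on all its arrays lie between -1.08 and 0.14. The open diamonds lie between -0.64 and 0.29.

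The same values can be read between the lines. In control soil all 3 genes had line ranges that did not overlap, as had 55.5% of all probe sets: Cat100-6 minus S1587-17 was 2.55 ± 0.49 for sps1, 1.79 ± 0.46 for sut1 and -1.68 ± 0.19 for sus1 (log2 units, SE). Without replicate 3 of S1587-17 control soil these differences were 2.99, 2.33 and -1.92. Markers differed in the same comparison: 3 of 4 bundle sheath and 2 of 3 root probe sets were higher in Cat100-6, the bundle sheath mean being 13.38 ± 0.02 in Cat100-6 and 12.38 ± 0.48 in S1587-17, and the root mean 7.04 ± 0.19 in Cat100-6 and 5.82 ± 0.36 in S1587-17 (SD, n = 3 each). Of 7 mesophyll probe sets, 1 was higher and 1 lower, and of 15 seed probe sets 1 was higher. By limma's test 28.2% of all probe sets were higher in Cat100-6 control soil and 23.2% lower. In acid soil the ranges of the lines overlapped for all 3 genes, where 45.5% of all probe sets had ranges apart. The differences there were -0.62 ± 0.49 for sps1, -0.57 ± 0.46 for sut1 and -0.29 ± 0.19 for sus1, that of sus1 turning to 0.16 when the arrays were set to the spiked controls. Leaving out 1 array moved them to between -1.13 and -0.19 for sps1, -0.97 and -0.14 for sut1, and -0.39 and -0.21 for sus1, the lowest for sps1 and sut1 without Cat100-6 acid soil replicate 3 and the highest without replicate 2. None of the mesophyll, bundle sheath or root probe sets passed limma's test between the lines in acid soil, in the deposited scaling. Of 15 seed probe sets 1 was higher and 1 lower, where 13.3% of all probe sets were higher and 10.6% lower. Set to the spiked controls, 2 mesophyll, 1 bundle sheath, 1 root and 3 seed probe sets were higher in Cat100-6 and 0 lower. Under that scaling 36% of all probe sets were higher and 3% lower.

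These values share arrays with those the genes were chosen on and were not tested. A measure of RNA quality went with the line in both soils: over 5 control genes, the 3' probe sets exceeded the 5' probe sets by 0.62 to 0.81 log2 units on the 6 Cat100-6 arrays and by 0.08 to 0.40 on the 6 S1587-17 arrays. Its part, and that of the markers, in the differences between lines was not tested.

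By group mean, sps1 and sut1 had the order Cat100-6 control soil, S1587-17 control soil, S1587-17 acid soil and Cat100-6 acid soil, from high to low. For sps1 the means in this order were 10.48 ± 0.35, 7.93 ± 0.77, 6.85 ± 0.59 and 6.23 ± 0.95 (SD, n = 3 each). The first 2 groups did not overlap, the S1587-17 groups were narrowly apart, and the acid soil groups overlapped. For sut1 the means below Cat100-6 control soil were 9.25 ± 0.98, 9.00 ± 0.15 and 8.43 ± 0.83, and neighbours among these 3 groups overlapped. Without S1587-17 control soil replicate 3, the order of the S1587-17 groups turned for sut1 (acid minus control 0.29). For sus1, S1587-17 acid soil (12.46 ± 0.11), S1587-17 control soil (12.33 ± 0.44) and Cat100-6 acid soil (12.17 ± 0.18) overlapped each other, and Cat100-6 control soil was below all of them.

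Averaged over both soils, the difference between the lines is orthogonal to both contrasts that were known when the genes were chosen, and 2 of the 3 genes passed limma's test on it, where 50.0% of all probe sets did. The mean level of sps1 was higher in Cat100-6 than in S1587-17 by 0.97 ± 0.35 log2 units (SE, interval 0.20 to 1.73, adjusted p = 0.0374). That of sus1 was lower in Cat100-6, at -0.99 ± 0.13 (interval -1.28 to -0.70, adjusted p = 0.000107). For sut1 the difference was 0.61 ± 0.32 (interval -0.10 to 1.31) and missed the threshold with an adjusted p of 0.144.

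The ranges of all 6 arrays of each line overlapped for all 3 genes, where 17.9% of all probe sets had ranges apart. The average stands for neither soil: for sps1 it joins a difference of 2.55 in control soil with one of -0.62 in acid soil. The call of sps1 was lost, with adjusted p up to 0.0931, when any 1 of 8 arrays was left out, namely Cat100-6 acid soil 1 or 3, Cat100-6 control soil 2 or 3, S1587-17 acid soil 2 or 3, or S1587-17 control soil 1 or 2. Without S1587-17 control soil replicate 3, sps1 was at 1.19 (limma, adjusted p = 0.00572), sut1 at 0.88 (0.00763) and sus1 at -1.11 (1.28e-06). The share of all probe sets passing in that fit is not given here, so nothing is read from how many members passed.

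Within groups the replicates were not alike, and sps1 and sut1 deviated together. In Cat100-6 acid soil leaves replicate 2 was lowest and replicate 3 highest for both genes, and sus1 had the reverse order. In S1587-17 control soil leaves both were lowest in replicate 1 and highest in replicate 3. Over all 12 arrays the deviations of sps1 and sut1 from their group means had a Pearson r of 0.886 (Spearman's rho 0.895), and r was 0.754 without the 2 arrays farthest from the median for sps1. A deviation r with sps1 at least that high was found for 2.03% of all probe sets.

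The opposite movement of sus1 within groups was weaker. Its deviations had an r of -0.611 with those of sps1 and of -0.729 with those of sut1. The r with sps1 was -0.245 without the 2 arrays farthest from the median for sps1. The r with sut1 was -0.457 without the 2 arrays farthest from the median for sut1. For sps1, 19.6% of all probe sets had an r at least as low as -0.611, so this value is not unusual on these arrays. The points share arrays and their normalization, and leaving out S1587-17 control soil replicate 3 gave r of 0.849 for sps1 with sut1, -0.345 for sps1 with sus1 and -0.351 for sut1 with sus1 over 11 arrays.

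The Cat100-6 acid soil arrays also differed over all probe sets. Replicate 2, lowest in sps1 and sut1, correlated over all probe sets with the Cat100-6 control arrays at r of 0.914 to 0.920, replicate 1 at 0.945 to 0.951 and replicate 3, highest in both genes, at 0.959 to 0.964. Bundle sheath markers on these arrays had the range of 11.66 to 12.71 given above. Leaving out 1 of these arrays moved the Cat100-6 difference to between -4.76 and -3.82 for sps1, -3.004 and -2.174 for sut1, and 1.43 and 1.61 for sus1, so the directions held.

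**Figure D3:**
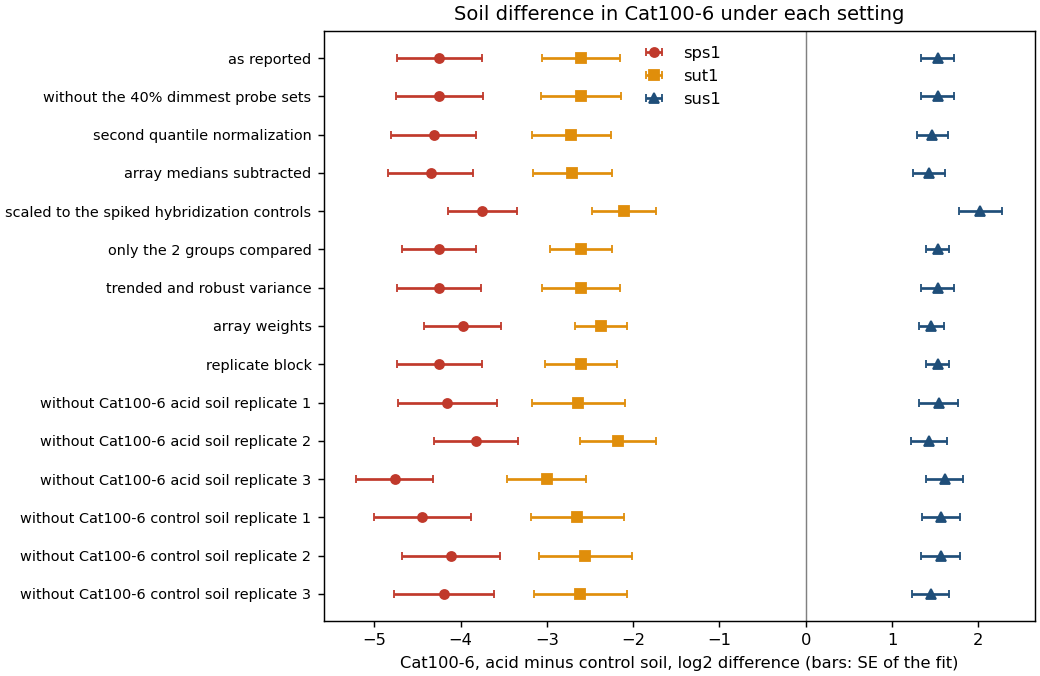
Difference between acid and control soil in Cat100-6 (log2, with the SE of the fit as bars) for sps1, sut1 and sus1, as reported and under each other setting, 1 row per setting. In all rows drawn sps1 and sut1 lie below 0 and sus1 above 0, and scaling to the spiked hybridization controls moves all 3 upward, to -3.75, -2.11 and 2.02.

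**Figure D4:**
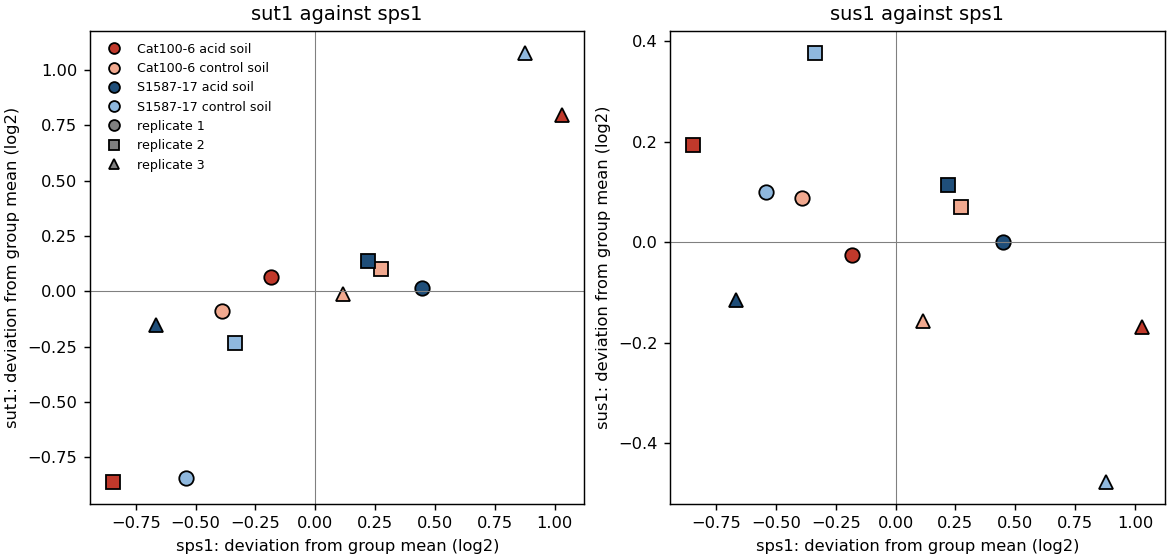
Deviation of each array from its group mean (log2), for sut1 and for sus1 against sps1, with groups by colour and replicates by shape. Deviations of sps1 and sut1 lie along a rising line (r of 0.886), while those of sus1 fall with more scatter (r of -0.611).

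Over the values themselves, group differences included, r across the 12 arrays was 0.960 for sps1 with sut1, -0.869 for sps1 with sus1 and -0.865 for sut1 with sus1. With sps1, 0.891% of all probe sets had an r at least as high as that of sut1, and 10.8% one at least as low as that of sus1. Among 1105 other named genes, the 3 most like sps1 were LAC1, named for laccase (r of 0.986), RR7, named for a response regulator (0.981), and pfk1, named for phosphofructokinase (0.980). Those most like sut1 were pht1, a phosphate transporter gene and 1 of the root markers (0.989), PDK2 (0.985) and MYB38_1, a MYB factor gene (0.985). Those most like sus1 were crt2, a calreticulin gene (0.992), dad1 (0.988) and arpp2a-2, for an acidic ribosomal protein (0.987). These correlations describe 12 arrays that fall into 4 groups and share their normalization.

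The other genes of sucrose and hexose metabolism, starch metabolism and sugar signalling that the array names numbered 33, with 40 probe sets. In Cat100-6, 9 of the 40 probe sets rose in acid soil, 21 fell and 10 did not pass, where 23.5% of all probe sets rose and 31.5% fell. Their median difference was -0.41 log2 units, against -0.14 over all probe sets. With the arrays set to the spiked controls, 11 rose and 4 fell, where 37.4% of all probe sets rose and 5.96% fell. Whether falls outnumber rises in the lists, as over all probe sets, therefore depends on the scaling.

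Nearest to sps1 and sus1 in function, the steps of sucrose synthesis and cleavage did not move one way in Cat100-6. These genes are outside the rule for naming and were picked for their function after the values were seen. The sucrose phosphatase gene spp1, whose product acts on that of sucrose phosphate synthase, fell in acid soil by 1.00 on the log2 scale (limma, adjusted p = 0.00121), while SPP2, of the same name, was higher by 0.68 (0.0341). The sucrose synthase gene sus2, the relative of sus1, fell by 0.87 (0.0116). For sh1, the endosperm sucrose synthase gene, 2 probe sets were higher, by 0.82 (0.00227) and 0.95 (0.0024), and a dim one was lower, at -0.33 (0.0292), so the probe sets disagree. With the arrays set to the spiked controls the calls of spp1 (-0.51, adjusted p = 0.0514), sus2 (-0.37, 0.214) and the dim sh1 probe set (0.16, 0.529) were lost, while SPP2 (1.18) and the other sh1 probe sets (1.31 and 1.45) stayed past the threshold. Probes of these related genes may share targets, which was not tested.

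By the naming rule, the sucrose and hexose list, with 5 probe sets that rose and 8 that fell of 17, gave frk2, a fructokinase gene, at 11.61 ± 0.35 in Cat100-6 acid soil and 9.72 ± 0.13 in control soil (SD, n = 3 each), a rise of 1.89 (limma, adjusted p = 6.58e-05). The fallers were pfk1, at -2.39 (0.00062), incw1, for a cell wall invertase that splits sucrose outside cells, at -1.83 (0.000181), and sxd1, for the tocopherol cyclase whose loss blocks sucrose export from maize leaves, at -1.28 (0.00354). All kept their calls with the arrays set to the spiked controls.

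The starch list had 4 probe sets that rose and 9 that fell of 19. By the naming rule the risers given are AGPLS3 at 2.15 (limma, adjusted p = 0.000489) and Agp2 (LOC542072) at 1.74 (1.15e-05), both for subunits of ADP-glucose pyrophosphorylase, which makes the glucosyl donor of starch, and the other two were AGP2 (LOC542737) at 1.41 and bt2 at 0.42. The AGPLS3 probe set was dim, at 5.37 ± 0.44 in Cat100-6 acid soil and 3.22 ± 0.47 in control soil (SD, n = 3 each). All 4 probe sets of the sugar signalling list fell, with a median of -0.74, among them SnrK1, for a protein kinase of energy signalling, at -0.72 (0.000368). Under the scaling to spiked controls none of these 4 fell at an adjusted p under 0.05, SnrK1 being at -0.23 (0.34), where 5.96% of all probe sets fell.

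In S1587-17 none of the 40 probe sets passed the limma test between soils, as 0.00% of all probe sets did. At an unadjusted p under 0.05 there was 1 of the 40, against 3.48% of all probe sets (613), and their median difference was -0.04, against -0.02 over all probe sets. The 3 genes of lowest p were all of the starch list: Agp2 (LOC542072) at 0.33, AGP2 (LOC542737), also for a subunit of ADP-glucose pyrophosphorylase, at 0.62 and sbe1, for starch branching enzyme, at 0.29, each with an adjusted p of 0.874. Without S1587-17 control soil replicate 3 these values were 0.19, 0.24 and 0.37.

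The responses of the lines differed for 7 of the 40, higher in Cat100-6 for 3 and lower for 4, where 8.76% and 5.92% of all probe sets passed in those directions. Without S1587-17 control soil replicate 3 the list counts were 6 and 17. The share of all probe sets in that fit is not given here, so nothing is read from the rise. Array weights gave the same list counts, with 3429 and 3952 of all 17621 probe sets passing, against 1544 and 1044 as reported. With the arrays set to the spiked controls the list counts were 3 and 0, where 11.4% and 0.982% of all probe sets passed. By the naming rule these were AGPLS3 at 1.98 ± 0.46, frk2 at 1.73 ± 0.27 and Agp2 (LOC542072) at 1.42 ± 0.18 (log2 units, SE), and in the other direction incw1 at -1.36 ± 0.32, GBSSIIa, for a granule-bound starch synthase, at -0.87 ± 0.14, and SnrK1 at -0.59 ± 0.15.

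**Figure D5:**
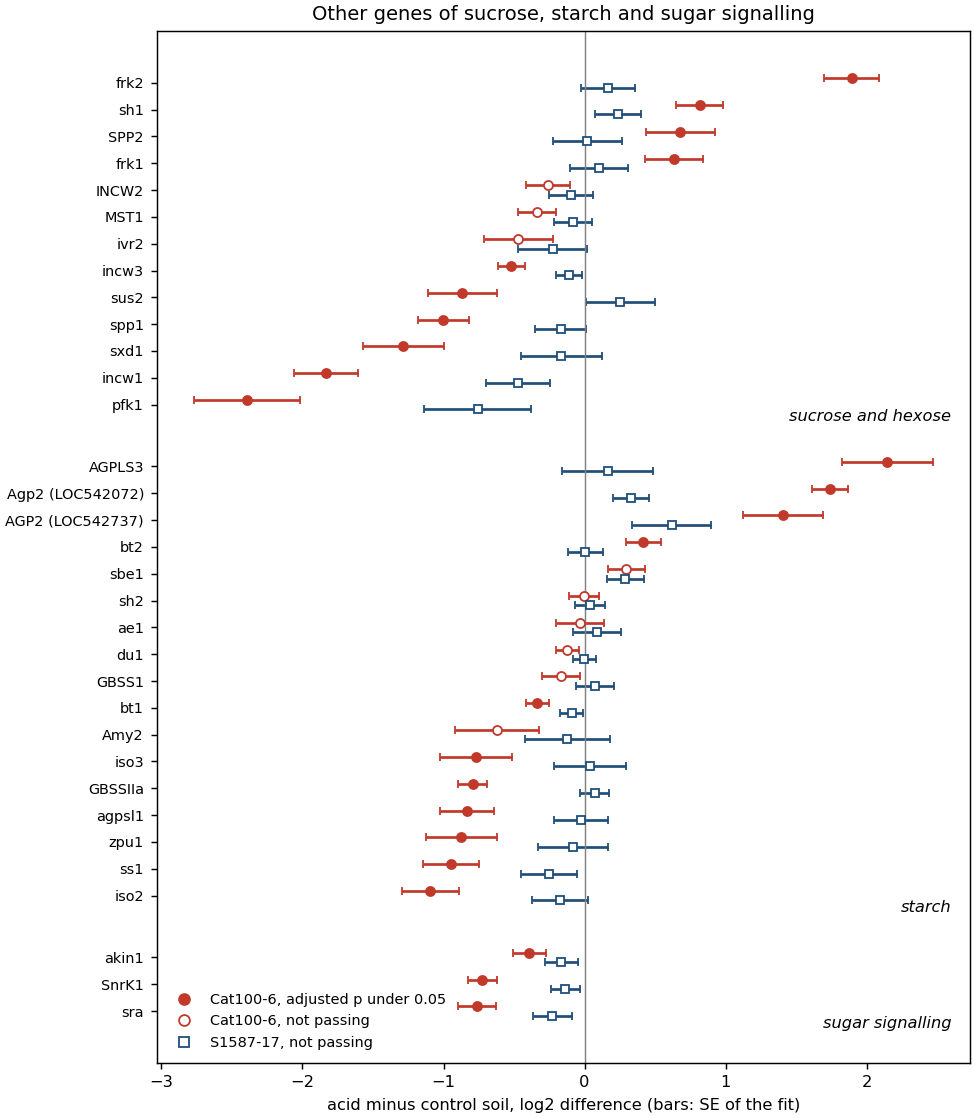
Difference between acid and control soil (log2, with the SE of the fit as bars) in Cat100-6 (circles, filled where the adjusted p is under 0.05) and S1587-17 (open squares) for the 33 other genes of the 3 lists, 1 probe set each. The Cat100-6 circles run from AGPLS3 at 2.15 to pfk1 at -2.39, while no S1587-17 square passed the test.

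Averaged over soils, 17 of the 40 were higher in Cat100-6 than in S1587-17 and 4 lower, where 26.6% and 23.4% of all probe sets were. With the arrays set to the spiked controls the counts were 26 and 1, where 39.4% and 10.1% of all probe sets were called. The sucrose synthase gene sus2 was higher in Cat100-6, at 2.74 ± 0.17 log2 units (SE; limma, adjusted p = 3e-07), whereas sus1 was lower by 0.99. The sus2 means were 7.11 ± 0.47 in Cat100-6 acid soil and 4.93 ± 0.23 in S1587-17 acid soil, and 7.97 ± 0.18 in Cat100-6 control soil and 4.67 ± 0.38 in S1587-17 control soil (SD, n = 3 each). These probe sets report levels on scales of their own, so only the directions of the 2 genes are set side by side.

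Also higher in Cat100-6 were GBSSIIa at 1.66 and Amy2 (LOC542472), a beta-amylase gene, at 1.46, and lower were frk2 at -1.85, Agp2 (LOC542072) at -0.61 and frk1, for another fructokinase, at -0.57. Under the scaling to spiked controls the calls of Agp2 (-0.35, adjusted p = 0.0772) and frk1 (-0.32, 0.171) were lost. Without S1587-17 control soil replicate 3 the count of higher probe sets was 21. The share of all probe sets in that fit is not given here, so nothing is read from this count. In acid soil alone 10 probe sets were higher in Cat100-6 and 2 lower, where 13.3% and 10.6% of all probe sets were. With the arrays set to the spiked controls the counts were 22 and 0, where 36% and 3% of all probe sets were called. Of the named genes, sus2 differed by 2.18, GBSSIIa by 1.23, Amy2 by 1.20, frk2 by -0.98 and bt1, for the carrier that brings ADP-glucose into endosperm plastids, by -0.25 (adjusted p = 0.0446 under limma). The call of bt1 was lost in 9 of 12 fits that left out 1 array (adjusted p up to 0.141), and its sign turned with the arrays set to the spiked controls, where frk2 also missed the threshold (-0.53, 0.0973). Leaving out 1 array took the adjusted p of Amy2 up to 0.0508.

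In control soil 23 of the 40 were higher in Cat100-6 and 5 lower, where 28.2% and 23.2% of all probe sets were. The largest were sus2 at 3.30, GBSSIIa at 2.09 and agpsl1, for a further subunit of ADP-glucose pyrophosphorylase, at 1.84. In the other direction were frk2 at -2.71, Agp2 (LOC542072) at -1.31 and AGPLS3 at -1.21.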

How the data were processed

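The table the authors deposited holds log2 values made with RMA, as the submitters' processing notes say, which means that background was corrected, arrays were normalized to each other and the probes of each set were summarised. Dim probe sets then show compressed differences. Software and version: not given in the sources used here. Array medians lay between 7.13 and 7.27. Arrays have no read depth, so their number limits the precision.

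Of 17734 probe sets, 113 controls were left out. Of the rest, 1452 have exactly 1 gene symbol in the platform annotation, 1 has several and 16168 have none, and 1377 were found in RefSeq's B73 NAM 5.0 gene table. The array's design names no build, so no coordinates are given. All 12 arrays were fitted in limma 3.58.1 (R 4.3.3), by lmFit and eBayes, with 4 group means, which leaves 8 residual degrees of freedom. P-values are two-sided and adjusted by the Benjamini-Hochberg method over 17621 probe sets, with a threshold of 0.05, and the procedure was tested on simulated data. Figures were drawn with matplotlib 3.10.9.

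The members and the gene lists were chosen with earlier results of these data known. For the members only the line difference averaged over soils was tested, and their S1587-17 response, planned as a test, is described. From the lists, 5 matching genes whose names show another function were dropped. In each comparison up to 3 list genes with the largest positive and up to 3 with the largest negative difference among those passing are named, 1 probe set per gene, or the 3 of lowest p where none passed. For each member the 3 named genes of highest correlation are given. Groups and replicate numbers come from the titles. Source labels write Ca100-6 for Cat100-6, and a shared description speaks of root leaves, read here as leaves. Same-numbered acid and control arrays had correlations of their deviations of 0.0238, 0.0396 and 0.16 in Cat100-6 and -0.125, 0.148 and -0.292 in S1587-17, so the numbers were not taken as pairs.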

Additional observations from a re-analysis of the deposited data

Results flagged for a closer look

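For 6 genes of the sucrose, starch and sugar signalling lists, the response to acid soil differed between the lines by limma's test of the difference itself (Cat100-6 response minus S1587-17 response, 3 arrays a group). They are AGPLS3 at 1.98 (adjusted p = 0.0202), frk2 at 1.73 (0.00446), Agp2 (LOC542072) at 1.42 (0.00153), incw1 at -1.36 (0.0216), GBSSIIa at -0.87 (0.0057) and SnrK1 at -0.59 (0.0257). In Cat100-6 frk2 was at 11.61 in acid soil and 9.72 in control soil, and in S1587-17 at 12.60 and 12.43. With the arrays set to the spiked controls the calls of incw1 (-0.96, adjusted p = 0.0515), GBSSIIa (-0.47, 0.277) and SnrK1 (-0.19, 0.679) were lost. With 1 array left out, the call was lost in 4 of 12 fits for AGPLS3, 6 for incw1 and 8 for SnrK1. The highest adjusted p was 0.0527 for AGPLS3, 0.0571 for incw1 and 0.073 for SnrK1, while frk2, Agp2 and GBSSIIa kept their calls. The contrast was already known for these arrays when the lists were drawn up, so it is no independent support.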

How the results depend on the processing

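Over 20 other settings, 12 of them leaving out 1 array, 332 of 354 values of the 3 members kept direction and side of the threshold or moved by less than 1 SD. Part of these values could not move. Leaving out an array of 1 line does not touch the soil difference within the other line. Settings that change only the estimate of the spread or the probe sets tested return the same difference. The count is therefore no measure of how firm the results are. With the arrays set to the spiked hybridization controls, sus1 was at 2.02 in the Cat100-6 response, 1.79 in the difference of responses and 0.16 between lines in acid soil, sut1 passed between lines averaged over soils (0.86, adjusted p = 0.0128), and bt1 was at 0.20 in acid soil. Other pathway counts were then 4 lower in Cat100-6, 0 lower for the difference of responses, 26 higher and 1 lower averaged over soils, and 22 higher and 0 lower in acid soil. Of all probe sets, 5.96% were then lower in Cat100-6 and 0.982% lower for the difference of responses. Averaged over soils 39.4% were higher and 10.1% lower, and in acid soil 36% and 3%. With array weights, whose fit stopped before convergence, the S1587-17 response was 0.34 for sut1 and -0.0090 for sus1. In that fit sut1 was at 1.00 averaged over soils (limma, adjusted p = 0.000614) and 2.36 in control soil. There 6 and 17 pathway probe sets had responses that were higher and lower, as had 3429 and 3952 of all 17621 probe sets. Lower counts for the difference of responses were 8 after a second quantile normalization, 10 with medians subtracted and 9 with the replicate block. Over all 17621 probe sets the lower counts were then 1330, 1745 and 1600, against 1044 as reported. The block also left sps1 past the threshold averaged over soils (limma, adjusted p = 0.0415). Lower counts in acid soil were 1 with the dimmest 40% left out, a second quantile normalization, only the 2 groups fitted, or the block. Over all probe sets the lower counts were then 1218 of 10572, and 1841, 2280 and 2013 of 17621, against 1875 as reported. Without the dimmest 40%, which tests fewer probe sets, 13 were lower in Cat100-6 and 15 higher in control soil. Of the 10572 probe sets tested there, 3436 were lower in the Cat100-6 response and 3615 higher between lines in control soil. The probe sets of AGPLS3, sus2 and bt1 were among the dim ones left out there. Leaving out 1 array gave 0.71 to 1.19 for sps1 and 0.39 to 0.88 for sut1 averaged over soils (sut1 passing without Cat100-6 acid soil 2 or S1587-17 control soil 3), -0.67 to 0.29 for sut1 and -0.10 to 0.33 for sus1 in the S1587-17 response, 1.20 to 1.63 for sus1 in the difference of responses and -1.92 to -1.50 between lines in control soil. Pathway counts then ran from 2 to 6 higher and 1 to 17 lower for the difference of responses, and 5 to 14 higher and 1 to 3 lower in acid soil. The counts over all probe sets moved as well. For the difference of responses they were 803 higher and 346 lower without Cat100-6 acid soil 1. Without Cat100-6 acid soil 3 they were 1867 and 1828. In acid soil they were 1647 and 1302 without Cat100-6 acid soil 1. Nothing is read from these ranges. Other causes were not tested. Averaging the probe sets of a gene was not run, since each member has 1.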
